A study of Mus musculus with 2 samples.

Results

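The miR-3470 and miR-3473 families are mouse miRNAs whose sequences are related to short interspersed elements (SINEs), the small repeats that are scattered through introns, untranslated regions and intergenic DNA. They were examined in extracellular vesicles (EVs) from mouse plasma. All columns of the 2 families in the table of mature miRNA counts were taken, which gave 9 species, mmu-miR-3470a and mmu-miR-3470b and 7 species from mmu-miR-3473a to mmu-miR-3473g, of 1915 mouse species listed and 117 with a count in either library. Only 2 of the 9 species, mmu-miR-3470b and mmu-miR-3473f, had a count, and both were counted in EVs of exercised mice alone.

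EVs were isolated by size exclusion chromatography from pooled plasma of wild type C57BL/6 mice that were 8 weeks old. Exercised mice ran on a treadmill for 60 min until exhaustion before blood was taken, and sedentary mice gave the control plasma. Each group was 1 pool of 20 mice and about 10 ml of plasma, from which 1 small RNA library was read over 50 nt, referred to as sEVs (sedentary) and eEVs (exercise). There was no replicate, so every test below compares counts between these libraries or within one of them and says nothing of the spread among mice, and fewer vesicles of a kind and less RNA per vesicle cannot be told apart. The depth was 2851 miRNA counts in sEVs but only 820 in eEVs. A species at 0 counts may have held up to 3 counts, or 0.105% of sEVs and 0.366% of eEVs. The reads carried no molecular identifiers, so only counting error enters the intervals, limits and p-values. Of 7 miRNAs common in plasma and blood cells, 6 were counted in sEVs and 2 in eEVs, with 5.09% and 6.10% of the counts, and mmu-miR-486a-5p was at 0 in both.

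A miRNA is cut from a hairpin precursor by Drosha and Dicer and is loaded into an Argonaute protein, where its seed, bases 2 to 8, pairs with target transcripts. SINEs of the mouse such as B1 and B2 are transcribed by RNA polymerase III and are also carried inside longer transcripts of many genes. Neighboring SINEs in opposite orientation can fold back on each other into hairpins. A short read from such a repeat can therefore match a miRNA of this kind and other places as well. How reads with several matches were assigned here is not given in the sources used here.

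Mature sequences for 8 of the 9 species were taken from RefSeq on GRCm38.p6; mmu-miR-3470a had no entry. Shown first are the 2 counted species, then 3 uncounted miR-3473 species that share runs of 14 to 18 bases with each other, with the seed in capitals.
mmu-miR-3470b: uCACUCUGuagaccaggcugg
mmu-miR-3473f: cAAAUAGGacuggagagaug
mmu-miR-3473a: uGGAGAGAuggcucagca
mmu-miR-3473b: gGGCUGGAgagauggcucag
mmu-miR-3473e: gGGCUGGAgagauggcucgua

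Most miR-3473 species held parts of one run of bases, though not at the same place or on the same strand. mmu-miR-3473a and mmu-miR-3473b shared 16 bases in a row (uggagagauggcucag), and mmu-miR-3473b and mmu-miR-3473e shared 18 (gggcuggagagauggcuc). mmu-miR-3473c matched mmu-miR-3473b only on the opposite strand, over 12 bases, and mmu-miR-3473d likewise over 8. In mmu-miR-3473f, the run shared with mmu-miR-3473b was 11 bases long (cuggagagaug) and lay at positions 10 to 20 counted from its 5′ end, outside the seed. mmu-miR-3473g shared 6 bases with mmu-miR-3473b. mmu-miR-3470b was no closer to any miR-3473 species than 7 bases, the run it shared with mmu-miR-3473g.

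The seeds followed this pattern. mmu-miR-3473b and mmu-miR-3473e had the same seed, GGCUGGA, while the other 6 members with a sequence had a seed that no other member shared. No other listed mouse miRNA with a sequence had the seed CACUCUG of mmu-miR-3470b or AAAUAGG of mmu-miR-3473f. Outside the families, mmu-miR-882 shared its seed with mmu-miR-3473a, mmu-miR-7649-3p with mmu-miR-3473c, and mmu-miR-1947-3p and mmu-miR-674-5p with mmu-miR-3473d. All 4 of these were at 0 counts in both libraries.

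The hairpins lay on 8 chromosomes of GRCm38 in the GENCODE M21 annotation. Mir3470b lies on chromosome 16 and its mature sequence at chr16:44013885-44013905 on the plus strand, within an intron of Gramd1c, which is on the opposite strand. Mir3470a is on chromosome 6 from 83090311 to 83090387 on the minus strand and overlapped no other annotated gene. The mature sequence of mmu-miR-3473f is at chr1:106546536-106546555 on the minus strand, within an intron of Bcl2, the inhibitor of apoptosis, and in the same orientation. In the rest of the miR-3473 family, Mir3473a (Syap1), Mir3473d (Ddx19b), Mir3473e (Rbks) and Mir3473g (Sppl2a) were in introns in the orientation of the host gene, Mir3473b was in an intron opposite to Ccdc162, and Mir3473c partly overlapped an exon of Traf5. These positions are those of the annotated hairpins. The count table holds no coordinates, so they do not show where a read came from.

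mmu-miR-3470b was the fifth most abundant miRNA of the eEV library and was not found in sEVs. The count table gave 0 of its reads in sEVs and 26 in eEVs. These 26 counts were 3.17% of the eEV library (exact 95% interval 2.08% to 4.61%), against at most 0.105% in sEVs. With the 0 counts in sEVs set to 3, it was 30.1-fold higher in eEVs. The lower end of the exact 95% interval of the fold change was 22.8. At its share in eEVs, the deeper sEV library would have held 90.4 counts. The 2 libraries differed beyond counting error (Fisher's exact test, two-sided, on this miRNA and all others, adjusted by Benjamini-Hochberg across the 117 counted species, adjusted p = 1.02e-15). When a biological coefficient of variation of 0.4 between libraries was assumed, the adjusted p was 0.00262 in edgeR's exact test. The blood cell and plasma markers did not all go one way beside it. Red cell mmu-miR-451a was also higher in eEVs, with 36 counts against 27 in sEVs, a fold change of 4.64 (adjusted p = 9.87e-08, Fisher's exact test; 0.39 at the same assumed variation). The share of mmu-miR-142a-3p went from 2.67% in sEVs (76 counts) to 1.71% (14). mmu-miR-122-5p (16 counts, 0.561%) and mmu-miR-126a-3p (14, 0.491%) were counted in sEVs alone. mmu-miR-16-5p (7, 0.246%) and mmu-miR-223-3p (5, 0.175%) were too, but below the limit of 0.366% in eEVs, so their 0 shows no direction. None of these 5 passed the adjusted threshold of 0.05. The other arm mmu-miR-142a-5p did (0.854% in eEVs against 2.77%, adjusted p = 0.0118, Fisher's exact test). mmu-miR-126a-5p had a higher share in eEVs (0.732% against 0.316%) and did not pass. The part of the markers in the difference of mmu-miR-3470b was not tested.

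**Figure D1:**
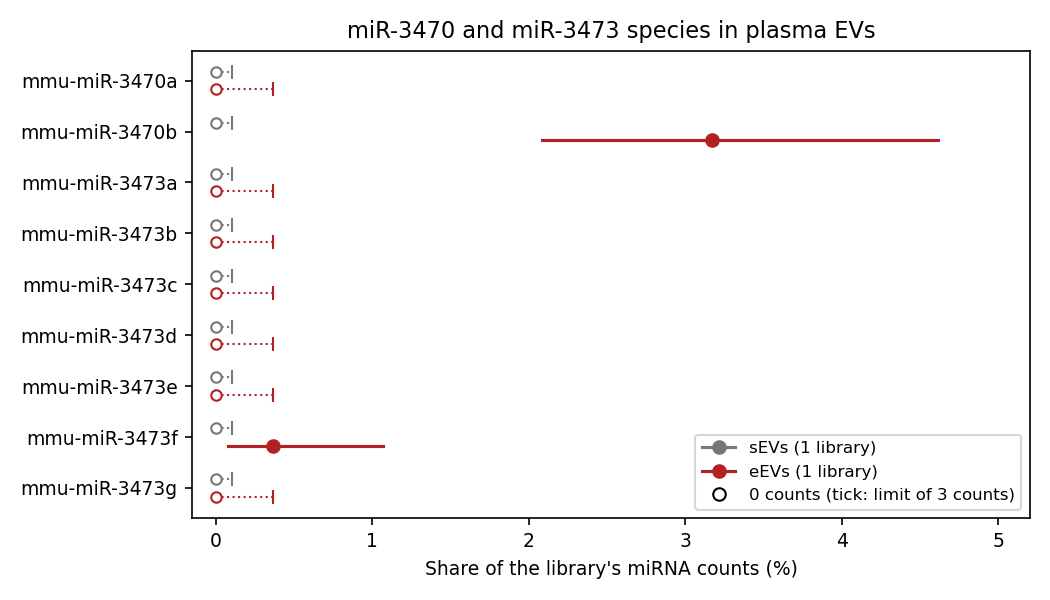
Share of each library's miRNA counts (%, x axis) for the 9 species (y axis) in sEVs (gray) and eEVs (red), 1 library each. Filled points have exact 95% intervals, and open points are 0 counts with a tick at the limit of 3 counts. mmu-miR-3470b sits at 3.17% in eEVs, above the limits of 0.105% and 0.366% that hold for the uncounted species.

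The other counted species, mmu-miR-3473f, was not counted in sEVs and had 3 counts in eEVs, a share of 0.366% (exact 95% interval 0.0755% to 1.07%). Both counts are at or under the limit of 3, so no fold change is given. The lower end of the exact interval of the ratio of shares was 1.44. The adjusted p of 0.0482 in the same two-sided Fisher's exact test lay just under the threshold of 0.05. It was shared by all 13 species with 0 counts in sEVs and 3 in eEVs. It did not hold with adjustment over all 1915 listed species (0.788) or when a coefficient of variation of 0.1 was assumed (0.335 in edgeR's exact test). At its share in eEVs, 10.4 counts would have been found in sEVs.

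Both counted members passed the test with a higher share in eEVs, where 18.8% of the 117 tested species did so and 23.1% passed in either direction. A species with no count in sEVs can pass only in this direction, and 7 of the 9 members had no count and could not be tested. The count of called members is therefore a description of these 2 species. Over both families, 0 of 2851 counts in sEVs allows a share of up to 0.105%, while the 29 counts in eEVs made up 3.54% of that library (exact 95% interval 2.38% to 5.04%). These 29 counts were 28.4% of the 102 counts on the 35 species found only in eEVs, and mmu-miR-3470b alone gave 25.5%.

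**Figure D2:**
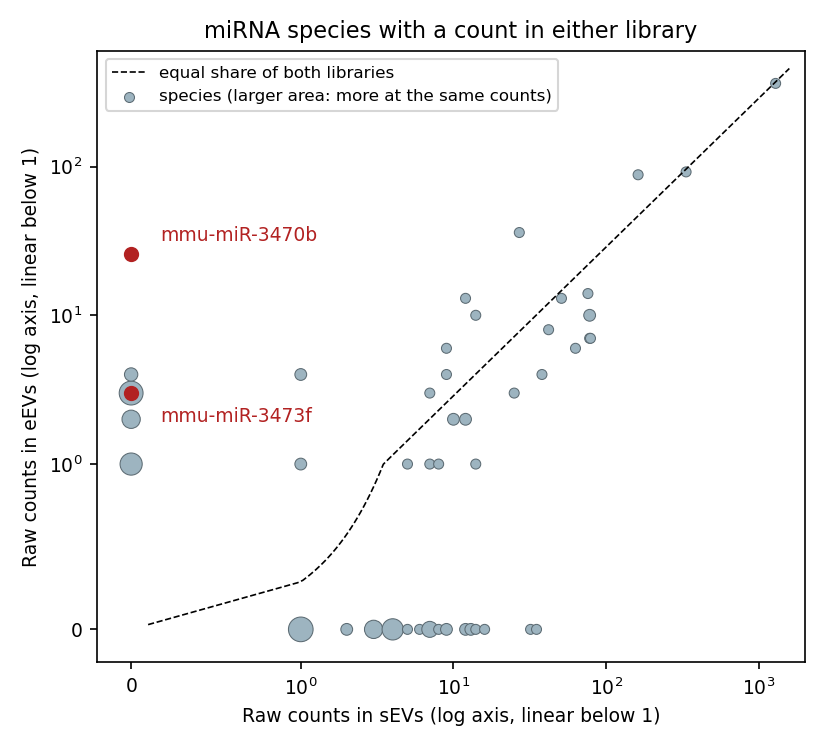
Raw counts of the 117 species with a count in sEVs (x axis) and eEVs (y axis), both on log axes that are linear below 1. Larger circles stand for more species at the same counts, and the dashed line marks equal shares of both libraries (bent where the axes turn linear). mmu-miR-3470b, with 26 counts, lies far above the other species at 0 in sEVs, which reach 4 counts at most, and mmu-miR-3473f lies among them at 3.

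Among species with 0 counts in sEVs, those nearest to mmu-miR-3470b in eEVs were mmu-miR-93-3p and the let-7 passenger strands mmu-let-7c-2-3p and mmu-let-7a-1-3p. Each had 4 counts in eEVs, or 0.488% of the library, so that no other species of this pattern came near the 26 counts of mmu-miR-3470b. This likeness was read over 2 libraries only.

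The miR-3470 family was represented by 1 of its 2 species. In eEVs, mmu-miR-3470b had 26 counts and its paralog mmu-miR-3470a had 0, which allows a share of up to 0.366%. Of the 26 counts on the pair, 100% were on mmu-miR-3470b, with a lower exact 95% limit of 86.8%. With the 0 counts of mmu-miR-3470a set to 3, the level of mmu-miR-3470b was 8.67-fold higher. The lower end of the exact interval of their ratio was 6.56 (two-sided exact binomial test against equal counts, p = 2.98e-08). In sEVs both paralogs were at 0 of 2851 counts, so the pair could not be compared there. These values take the counts as the table assigns them, and whether reads of the paralogs can be told apart was not tested. Whether the contrast between the paralogs differed between sEVs and eEVs could not be tested for the same reason.

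Between the families, mmu-miR-3470b had more counts in eEVs than mmu-miR-3473f. The ratio of 26 to 3 counts was 8.67 (exact 95% interval 2.66 to 44.7). This pair was compared because no other member had a count. A test against equal counts would rest on members selected by those counts, so no p-value is given and the ratio is a description. Within the miR-3473 family the depth was too low for such a contrast. The 3 counts of mmu-miR-3473f against 0 of any other member gave an exact interval of the ratio from 0.413 upward, which includes equal counts (two-sided exact binomial test, p = 0.25, the smallest that 3 counts can give). mmu-miR-3473a, mmu-miR-3473b, mmu-miR-3473c, mmu-miR-3473d, mmu-miR-3473e and mmu-miR-3473g were each at 0 in both libraries. For these 6 species and mmu-miR-3470a, a change within the limits of 0.105% of sEVs and 0.366% of eEVs was not detectable at this depth.

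The mature sequence of mmu-miR-3470b recurred in more annotated genes than that of any other miRNA searched. All 21 bases were found in transcripts of 1067 of 55450 GENCODE M21 genes other than its own hairpin, or 1.92%. They lay on the strand of the transcript in 590 genes and on the opposite strand in 504, with some genes holding both. With 1 mismatch allowed, 2609 genes held the sequence. It ranked highest of the 1623 listed species with a sequence in RefSeq, whose median was 0 genes, and it was the only one of the 99 counted species with a sequence that matched 100 genes or more. Next among the counted species was mmu-miR-690 with 19 genes. The other 18 counted species, mmu-miR-466i-5p among them, were not searched.

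The same search separated the miR-3473 species. mmu-miR-3473b was found in transcripts of 743 genes and mmu-miR-3473a in 283, the second and the fourth of the species searched, and both had 0 counts. mmu-miR-3473c, mmu-miR-3473d, mmu-miR-3473e, mmu-miR-3473f and mmu-miR-3473g matched no transcript of another gene, and with 1 mismatch allowed they matched 1 gene at most. The 2 counted members were thus at opposite ends of this measure, with 1067 genes for mmu-miR-3470b and 0 for mmu-miR-3473f. A match of the mature bases describes the sequence, and the part of reads from other genes in the 26 counts was not tested.

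**Figure D3:**
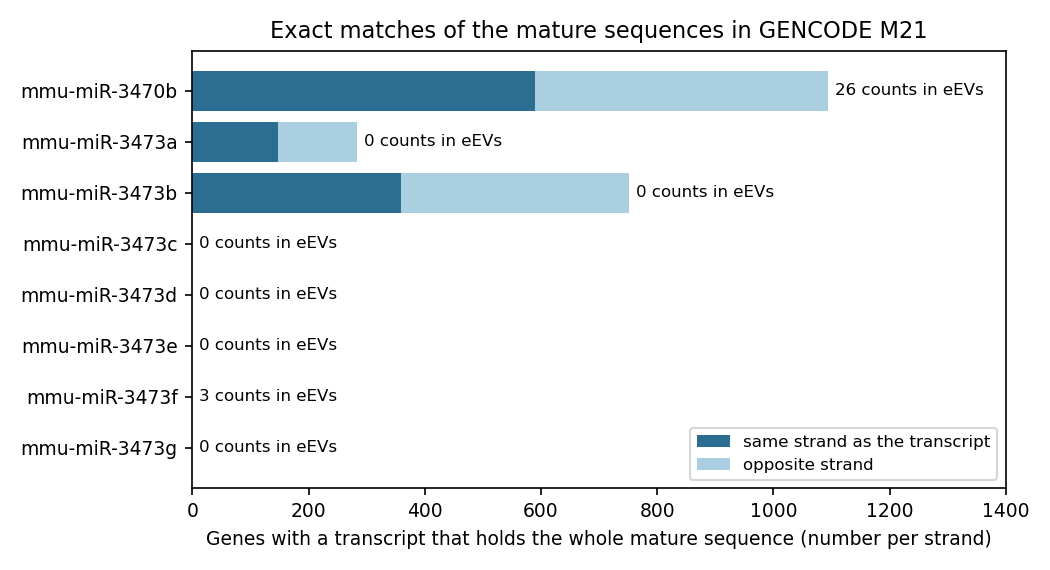
Number of genes (x axis) with a GENCODE M21 transcript that holds the whole mature sequence of each of 8 members (y axis), on the strand of the transcript (dark) or opposite to it (light, stacked, so that a gene with both is drawn in each). Counts in eEVs are written beside the bars. mmu-miR-3470b (590 and 504 genes) and mmu-miR-3473b (359 and 392) have the longest bars but 26 and 0 counts.

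Promoters held these sequences rarely. In windows of 300 bases around the start of 32851 genes, the mature sequence of mmu-miR-3470b was found in 10 on either strand, or 0.0304%, and that of mmu-miR-3473b in 32, or 0.0974%. The run of 16 bases shared by mmu-miR-3473a and mmu-miR-3473b was in 51 windows, or 0.155%. On either strand this run was also in 7 of the 1005 RefSeq hairpins, or 0.697%. These include the hairpins of mmu-miR-3473a, mmu-miR-3473b, mmu-miR-3473c and mmu-miR-3473f, so the share is no background rate.

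The hairpins of the miR-3473 family hold their mature sequences, so runs shared between hairpins can only be as long or longer. That of mmu-miR-3473b is 55 bases long and held a run of 20 bases together with its own reverse complement, and that of mmu-miR-3473f, 136 bases long, held such a run of 17. In the other hairpins of this family such a run was 6 to 12 bases long. The hairpins of mmu-miR-3473f and mmu-miR-3473c shared 21 bases in a row, the longest run on the same strand between any pair of the 7 miR-3473 hairpins. That of mmu-miR-3473d shared at most 13 with any other. The hairpins of the miR-3470 family were not compared. The run of 16 bases stood in the mmu-miR-3473f hairpin once on each strand, though the mature mmu-miR-3473f holds only a part of it.

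Beyond the 2 families, 3 hairpins shared 18 bases in a row with a miR-3473 hairpin, and no hairpin shared as many with mature mmu-miR-3470b. They carry 4 listed species, mmu-miR-1934-3p, mmu-miR-1934-5p, mmu-miR-6413 and mmu-miR-690. The first 3 were at 0 counts in both libraries. mmu-miR-690, whose hairpin shares such a run with those of mmu-miR-3473a, mmu-miR-3473b, mmu-miR-3473c and mmu-miR-3473f, fell from 78 counts in sEVs to 7 in eEVs. Its log2 fold change of -1.68 (adjusted p = 0.0143, two-sided Fisher's exact test) was opposite in direction to the difference found for the 2 counted members. With an assumed coefficient of variation of 0.1, 0.2 or 0.4 this difference of mmu-miR-690 did not pass (adjusted p from 0.0501 to 0.39 in edgeR's exact test).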

How the data were processed

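Small RNA libraries (TruSeq kit, single-end) of pooled plasma EVs were counted by the authors, who deposited raw counts per mature miRNA with libraries in rows, and a table of each count as a fraction of the library's total, also deposited. The aligner, miRNA release, genome build and filters are not given in the sources used here. Only the 1915 mouse columns were used; 67 columns of other names were not used. The members, lists and tests were chosen with earlier results of these data known. All 9 members were named, together with the 3 species closest in pattern and those whose hairpin shares 18 bases in a row with a member's. Shares have exact Clopper-Pearson intervals and fold changes exact intervals conditional on the summed counts, at 95%, with a limit of 3 counts for 0. With 1 library per group, edgeR's quasi-likelihood test could not be fitted. Fisher's exact test was used in its place. It was tested on simulated counts with counting error only, which leaves out variation between libraries. Alternatives were TMM factors, DESeq2 size factors, other totals, added counts, other adjustments and an assumed variation between libraries in the exact test of edgeR. No whole genome was searched, so repeats were sought in GENCODE M21 transcripts by exact match on both strands. Promoter windows of 300 bases and RefSeq hairpins were searched on both strands as well. SINE annotation was not used here. Versions were edgeR 4.0.16 and DESeq2 1.42.0 in R 4.3.3, and scipy 1.17.1, pandas 2.3.3, numpy 2.4.6 and matplotlib 3.10.9 in Python 3.11.15.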

Additional observations from a re-analysis of the deposited data

How the results depend on the processing

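mmu-miR-3470b was higher in eEVs in all 12 alternatives, but with 0 counts in sEVs none of them could have reversed this direction. Its adjusted p was under 0.05 in the 8 that give one (Fisher's or edgeR's exact test), from 8.4e-17 to 0.00262. Its fold change against 3 counts was 29.6 to 43.3 over the other totals and factors, but 184 with 0.5 counts added and 93.9 with 1 count added, which shows only the value set for 0. The ratio of mmu-miR-3470b to mmu-miR-3470a in eEVs was likewise 53 and 27 with these additions. The share of the miR-3470 family in eEVs rose to 5.68% without the most abundant species in the total, and that of the miR-3473 family to 0.655%. mmu-miR-3473f was under 0.05 in 3 of 7 alternatives, chosen after the data were seen, with adjusted p-values from 0.0376 to 0.788. The number of species called, 27 of 117, was 13 with adjustment over species with 5 or more counts (6 higher and 7 lower in eEVs), 3 over all listed species, and 5, 4 and 1 in edgeR's exact test with an assumed coefficient of variation of 0.1, 0.2 and 0.4. No paired analysis was possible because each group is 1 library with no replicate number. With 820 counts in eEVs, a species under 0.366% of that library may go uncounted.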

Other observations

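Besides the members, 2 of the 1623 species searched matched transcripts of 100 genes or more, mmu-miR-706 with 450 genes and mmu-miR-3471 with 112. Both were at 0 counts in sEVs and eEVs, as were mmu-miR-3473a and mmu-miR-3473b. mmu-miR-680, with 89 genes, was also at 0 in both. Of the 5 searched species at 100 genes or more, mmu-miR-3470b was the only one with a count. These 5 were chosen after the matches and counts were seen. The 18 counted species without a sequence in RefSeq, mmu-miR-466i-5p among them, were not searched.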
